A study of Homo sapiens with 8 samples.

Results

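The genes described here are 39 targets of the transcription factor NRF2 and enzymes that make or use glutathione, followed through the RNA of 2 triple-negative breast cancer cell lines exposed to Acetalax. They were chosen by name, with the log2 ratios of CE over parental cells and of Acetalax-treated over control cells in view, so those ratios are given as a description and carry no test. Of the 39 genes, 38 had a row in the count table and 37 had at least 1 count in any library. A mean of at least 1 CPM (counts scaled to the library's total) over all libraries was reached by 36 of them, among 14030 such genes of the 55679 gene identifiers in the table. SOD2, the mitochondrial superoxide dismutase, was not analysed here. TRIM16L, a TRIM16-like gene, had 0 counts in each of the 8 libraries, and 100% of the read-length windows of its transcript also occur in transcripts of other genes such as TRIM16. GPX2, a glutathione peroxidase best known from the gut, had from 1 to 11 counts and is given no fold change between conditions. It was among the members tested between the lines below and was not called (log2 fold change -0.55, SE 0.66).

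NRF2, encoded by NFE2L2, is the main switch of the cell's defence against electrophiles and oxidants. KEAP1, its repressor, holds it in the cytoplasm and hands it to the CUL3 ubiquitin ligase, and when cysteines of KEAP1 are modified NRF2 escapes, pairs with a small MAF protein and binds antioxidant response elements (AREs) next to its targets. These targets make glutathione, attach it to foreign compounds, reduce thioredoxin and quinones, supply NADPH, break down heme and store iron.

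MDA-MB468 and BT549 are established lines derived from triple-negative breast cancers. Each was sequenced as parental cells and as CE cells, which had been passaged under rising Acetalax, a diphenolic laxative compound, up to 40 μmol/L and then kept free of the drug for 2 weeks. Cells of all 4 backgrounds were left untreated (control) or treated with 1 μmol/L Acetalax for 6 h, which gives 8 libraries, 1 per condition. The CE cells of a line are 1 selected culture, so selection and drift cannot be told apart from an effect of the drug, and no difference between 2 conditions has a replicate check. Polyadenylated RNA was sequenced, and the total count on genes was between 42261122 and 54241728 per library (median 48064282). Epithelial markers (7 genes, among them KRT8 and EPCAM) summed to between 2099 and 2752 FPKM (fragments per kilobase of exon, scaled to the library's total) in MDA-MB468 and between 1.80 and 22.6 FPKM in BT549. Mesenchymal markers (5 genes, among them VIM and SPARC) summed to between 1.19 and 4.47 FPKM in MDA-MB468 and between 482 and 964 FPKM in BT549. The estrogen receptor gene ESR1 reached at most 0.375 FPKM and the progesterone receptor gene PGR at most 0.0427 FPKM. ERBB2, which encodes HER2, was between 3.99 and 9.22 FPKM over the 8 libraries. The T cell marker CD3E had 0 counts throughout. The leukocyte list of 5 genes, led by CD14, summed to between 3.85 and 28.6 FPKM in MDA-MB468. In BT549 that list summed to at most 1.60 FPKM.

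Promoter sequence is shown because NRF2 acts through AREs. The members were named as NRF2 targets, so matches to the ARE in them describe the choice and add nothing independent to it. RefSeq windows of GRCh38.p14 covering 250 bases before to 50 bases after a transcription start were held for 29 members (39 windows). No window was held for HMOX1, PRDX1, PRDX6, CBR3, FTH1, GSR, GSS, AKR1B10 and TRIM16L, so these genes were not searched. Sequence outside the windows was not searched for any member. The ARE core TGACNNNGC, searched on both strands, was found in 12 of these 39 windows (30.8%), against 13.3% of all 35116 windows. The members concerned were CBR1, EPHX1, GCLM, GPX2, GSTO1, GSTP1, KEAP1, ME1, MGST1, PGD and TXNRD1. The AP-1 site TGACTCA was found in 3 windows (7.69%, against 4.95% of all windows), those of GSTP1, ME1 and OSGIN1, and in GSTP1 and ME1 it overlaps the ARE core. Shown are stretches around a match in 6 genes to which the values below return, written 5′ to 3′ on the gene's strand with the match in capitals; the KEAP1 stretch holds a second match that is left in lower case.
TXNRD1 (chr12:104215648-104215720, plus strand, ARE core): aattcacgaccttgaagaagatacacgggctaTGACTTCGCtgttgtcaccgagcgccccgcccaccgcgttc
GCLM (chr1:93909424-93909496, minus strand, ARE core): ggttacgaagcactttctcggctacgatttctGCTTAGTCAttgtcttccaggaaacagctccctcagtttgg
ME1 (chr6:83431148-83431220, minus strand, ARE core): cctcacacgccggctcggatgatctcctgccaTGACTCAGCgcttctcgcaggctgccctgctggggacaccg
GSTP1 (chr11:67583714-67583786, plus strand, ARE core): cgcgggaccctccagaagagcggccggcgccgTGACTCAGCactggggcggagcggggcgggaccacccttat
KEAP1 (chr19:10502785-10502857, minus strand, ARE core): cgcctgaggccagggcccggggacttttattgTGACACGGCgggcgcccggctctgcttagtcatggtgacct
OSGIN1 (chr16:83953111-83953181, plus strand, AP-1 site): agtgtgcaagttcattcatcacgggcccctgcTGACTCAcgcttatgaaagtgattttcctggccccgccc
In GCLM the capitals read the core on the opposite strand. A match is a run of letters, not a shown binding site.

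The first question was how the members differ between CE and parental cells without drug. In each pair of libraries a log2 ratio was taken of the counts plus 0.5, scaled to the library's total. It is close to the ratio of FPKM except at low counts, and its 95% exact binomial interval covers counting error only. In MDA-MB468, 3 of the 36 members were at least 2-fold higher in CE cells (8.33%, against 3.21% of all 14030 genes) and 3 were at least 2-fold lower (8.33%, against 2.92%). In BT549, 7 were at least 2-fold higher (19.4%, against 9.16%) and 5 at least 2-fold lower (13.9%, against 6.81%). AKR1B10 was the 1 member at least 2-fold higher in both lines (0.756% of all genes) and AKR1C1 the 1 member at least 2-fold lower in both (0.599%). The members' median log2 ratio was 0.13 in MDA-MB468, against 0.04 for all genes, and 0.02 in BT549, against -0.05. Members thus lay in both directions within each line, and nothing is read from these shares because the same ratios were in view when the genes were chosen. In bulk RNA, fewer cells that express a gene and less RNA per cell cannot be told apart.

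**Figure D1:**
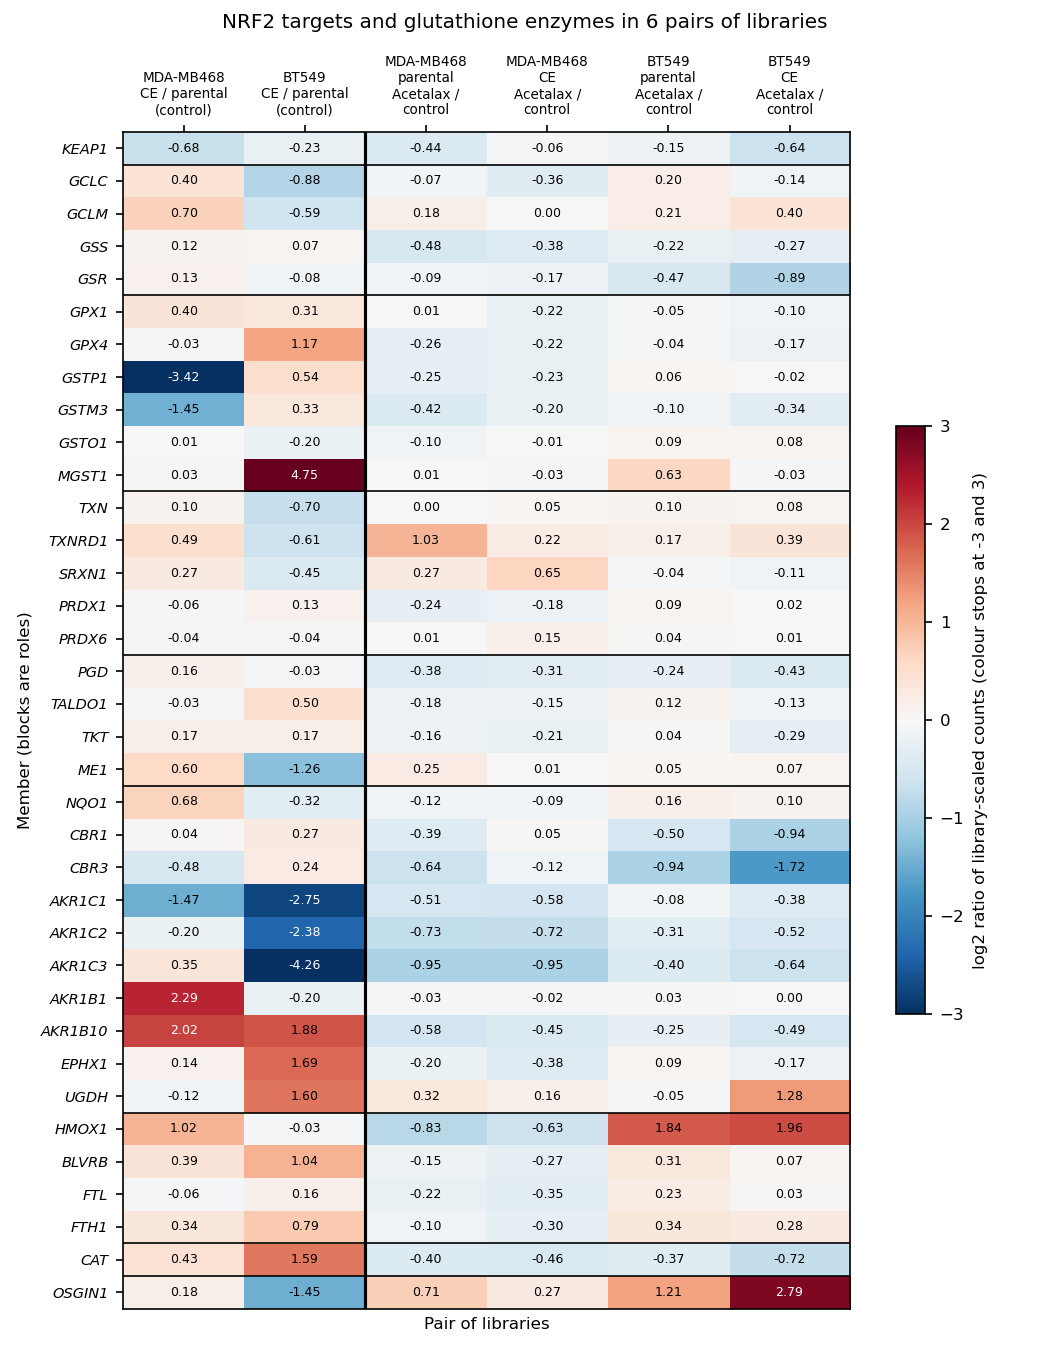
Log2 ratios of the 36 measured members (rows, grouped by role) in 6 pairs of libraries (columns, first CE over parental control cells, then Acetalax over control in each background); red is higher, blue lower, and the colour stops at -3 and 3. The columns for CE cells hold the most extreme values, from -4.26 for AKR1C3 to 4.75 for MGST1 in BT549, while most Acetalax ratios lie near 0.

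KEAP1, the repressor, lies on chromosome 19 (hg19 10596796 to 10614417, minus strand). In MDA-MB468 its level was 79.3 FPKM in parental control, 58.5 in parental Acetalax, 49.6 in CE control and 47.7 in CE Acetalax cells. In BT549 the same libraries had 37.0, 33.4, 31.5 and 20.2 FPKM. The highest library of each line was thus the untreated parental one, and every BT549 library was below every MDA-MB468 library. The log2 ratio of CE over parental control was -0.68 in MDA-MB468 (interval -0.72 to -0.64) and -0.23 in BT549 (-0.29 to -0.18), under 2-fold in both.

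Among the enzymes that make and recycle glutathione, none of the 4 was 2-fold apart between CE and parental cells in either line. GCLM, the modifier subunit of the ligase that starts glutathione synthesis, had 16.4, 18.5, 26.6 and 26.6 FPKM in MDA-MB468, in the order parental control, parental Acetalax, CE control and CE Acetalax. In BT549 the order gave 25.5, 29.5, 16.9 and 22.3 FPKM. Both CE libraries were therefore above both parental libraries in MDA-MB468 and below them in BT549. The log2 ratio of CE over parental control was 0.70 in MDA-MB468 and -0.59 in BT549. For GCLC, the catalytic subunit, it was 0.40 and -0.88, and for GSS, the synthetase, and GSR, the reductase that restores glutathione from its oxidised form, all values lay between -0.08 and 0.13.

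The glutathione-using enzymes held the widest differences. GSTP1, the pi-class transferase, lies on chromosome 11 (hg19 67351066 to 67354131). Its level in MDA-MB468 was 55.3 FPKM in parental control and 46.5 in parental Acetalax cells, and 5.17 in CE control and 4.42 in CE Acetalax cells. In BT549 it was 108.8, 113.7, 157.7 and 155.6 FPKM in the same order. CE control cells of MDA-MB468 thus had 10.7-fold less GSTP1 RNA than parental control cells (log2 ratio -3.42, interval -3.57 to -3.27), and the treated pair differed 10.5-fold, whereas the BT549 ratio was 0.54. GSTM3, a mu-class transferase, had 10.8, 8.03, 3.93 and 3.41 FPKM in MDA-MB468 and 4.33, 4.03, 5.44 and 4.29 FPKM in BT549. It was 2.74-fold lower in CE than in parental control cells of MDA-MB468 (log2 ratio -1.45, interval -1.57 to -1.34) and had a ratio of 0.33 in BT549. In MDA-MB468 both transferases were lower in each CE library than in each parental library.

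MGST1, a transferase anchored in membranes, and GPX4, the peroxidase that reduces lipid hydroperoxides, were higher in CE cells of BT549. MGST1 had 20.5, 20.6, 20.8 and 20.4 FPKM in MDA-MB468, close to level over the 4 libraries. In BT549 it had 13 counts in parental control (0.0413 FPKM), 21 in parental Acetalax (0.0649 FPKM), 467 in CE control (1.16 FPKM) and 425 in CE Acetalax cells (1.13 FPKM). The CE control library was thus 27.0-fold above the parental one (log2 ratio 4.75, interval 4.02 to 5.73), and its level was still far below that in MDA-MB468. GPX4 had 82.0, 68.4, 80.3 and 69.0 FPKM in MDA-MB468 and 78.7, 76.7, 177.6 and 158.0 FPKM in BT549. Its CE control level in BT549 was 2.26-fold the parental one (log2 ratio 1.17, interval 1.13 to 1.22), with no such difference in MDA-MB468 (-0.03). The log2 ratios of GPX1 and GSTO1 in these pairs lay between -0.20 and 0.40. Epithelial markers summed to 2.82 FPKM in parental and 22.6 FPKM in CE control cells of BT549, and 5 of 7 were higher in CE cells, with KRT8 at 4.76 on the log2 scale. Of the 5 mesenchymal markers, SPARC was higher (94.6 and 743 FPKM, log2 ratio 2.97) and the other 4 were lower (VIM -0.62, ZEB1 -0.56, FN1 -1.46 and CDH2 -1.02). Their part in the differences between these cells was not tested.

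**Figure D2:**
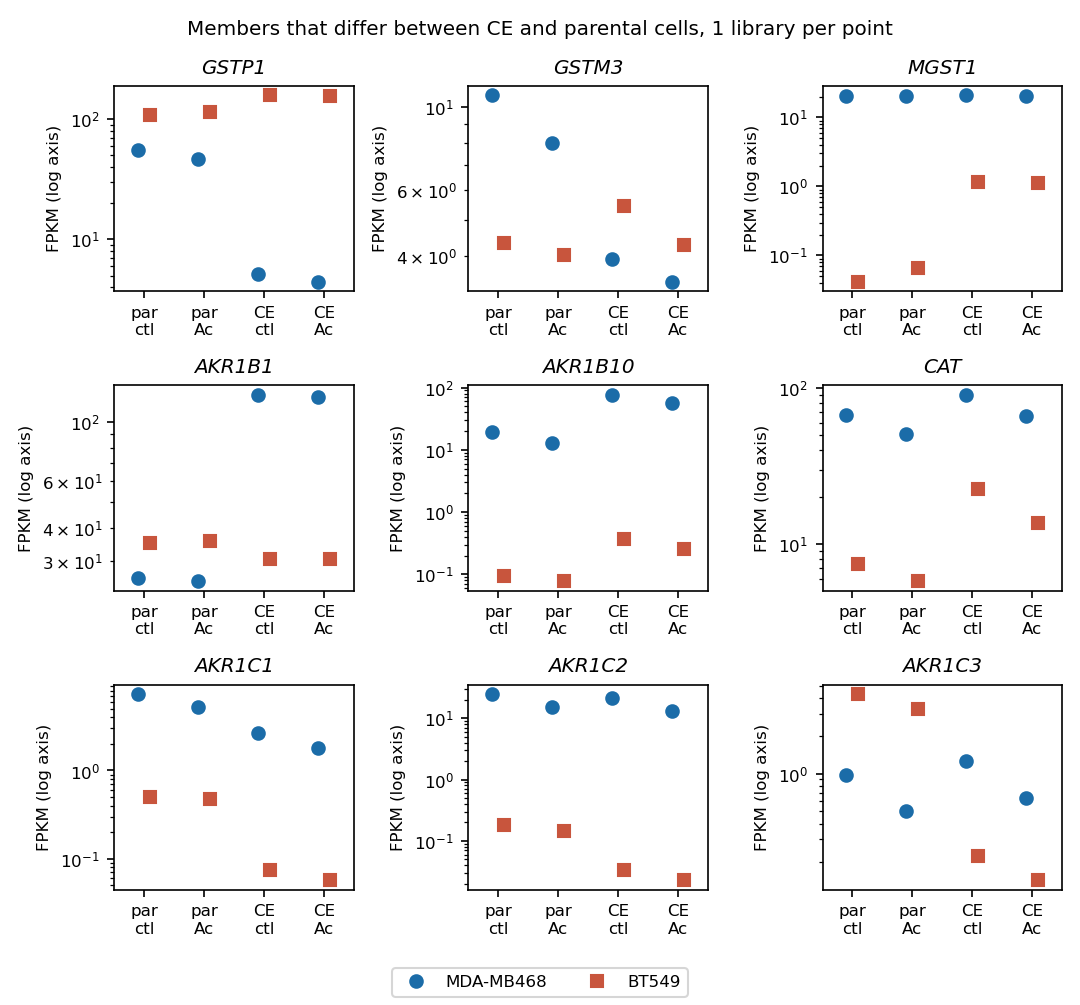
Level in FPKM (log axis) of 9 members in each of the 8 libraries, 1 point per library, with circles for MDA-MB468 and squares for BT549; par is parental, ctl control and Ac Acetalax. GSTP1 is at 55.3 FPKM in parental and 5.17 FPKM in CE control cells of MDA-MB468, and MGST1 is at 0.0413 and 1.16 FPKM in the matching BT549 libraries.

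The thioredoxin and peroxiredoxin genes (TXN, TXNRD1, SRXN1, PRDX1 and PRDX6) act in reducing oxidised protein thiols and peroxides. Of these genes, 0 of 5 were 2-fold apart between CE and parental control cells. Their log2 ratios lay between -0.06 and 0.49 in MDA-MB468 and between -0.70 and 0.13 in BT549. SRXN1 had from 99 to 216 counts, and 90.4% of the read-length windows of its transcript also belong to an overlapping gene model, so its level is uncertain. Of the genes that supply NADPH, ME1, the cytosolic malic enzyme, was the 1 of 4 that was 2-fold apart. ME1 had 14.5, 17.3, 22.0 and 22.1 FPKM in MDA-MB468 and 16.6, 17.2, 6.94 and 7.29 FPKM in BT549. As with GCLM, CE cells were above parental cells in MDA-MB468 (log2 ratio 0.60) and below them in BT549 (-1.26, interval -1.36 to -1.16, 2.39-fold lower). PGD, TALDO1 and TKT, enzymes of the pentose phosphate pathway, had log2 ratios between -0.03 and 0.50.

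The reductases and detoxification enzymes split most between members. AKR1B10, which reduces retinal and other aldehydes, lies on chromosome 7 (hg19 134212344 to 134226160) next to its relative AKR1B1, aldose reductase (hg19 134127102 to 134144036). AKR1B10 had 19.0, 12.7, 77.1 and 56.6 FPKM in MDA-MB468. In BT549 it had only 7, 6, 35 and 23 counts (from 0.0778 to 0.364 FPKM). CE control cells were 4.05-fold above parental control cells in MDA-MB468 (log2 ratio 2.02, interval 1.94 to 2.10) and 3.69-fold above in BT549 (1.88, interval 0.77 to 3.38), where the counts leave a wide interval. AKR1B1 had 25.8, 25.2, 126.4 and 124.2 FPKM in MDA-MB468 and 35.0, 35.6, 30.5 and 30.5 FPKM in BT549. It was 4.89-fold higher in CE than in parental control cells of MDA-MB468 (log2 ratio 2.29, interval 2.24 to 2.34) and not in BT549 (-0.20).

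AKR1C1, AKR1C2 and AKR1C3, hydroxysteroid dehydrogenases that also reduce carbonyls, lie together on chromosome 10 (hg19 4934796 to 5149878). Their transcripts share 12.5%, 27.5% and 6.36% of their read-length windows with relatives, so a read in those stretches does not by itself identify its gene. Reads were sequenced in pairs, and how many pairs were affected was not tested. AKR1C1 had 7.43, 5.23, 2.67 and 1.79 FPKM in MDA-MB468 and 0.502, 0.475, 0.0736 and 0.0564 FPKM in BT549. It was lower in CE than in parental control cells in both lines, 2.78-fold in MDA-MB468 (log2 ratio -1.47, interval -1.58 to -1.37) and 6.74-fold in BT549 (-2.75, interval -3.33 to -2.24). AKR1C2 had 24.9, 15.0, 21.6 and 13.1 FPKM in MDA-MB468 and 46, 38, 11 and 7 counts in BT549, and its log2 ratios were -0.20 and -2.38 (interval -3.52 to -1.45). AKR1C3, the prostaglandin F synthase, had 0.978, 0.505, 1.25 and 0.645 FPKM in MDA-MB468 and 4.30, 3.26, 0.222 and 0.142 FPKM in BT549. It was 19.2-fold lower in CE than in parental control cells of BT549 (log2 ratio -4.26, interval -4.74 to -3.85) and had a ratio of 0.35 in MDA-MB468. The 3 neighbours were therefore all lower in CE cells of BT549, and in MDA-MB468 AKR1C1 alone was 2-fold lower.

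EPHX1, the microsomal epoxide hydrolase, and UGDH, which makes UDP-glucuronic acid, were both higher in CE cells of BT549. EPHX1 had 61.4, 53.6, 67.6 and 52.0 FPKM in MDA-MB468 and 12.2, 13.0, 39.5 and 35.1 FPKM in BT549, where the log2 ratio of CE over parental control was 1.69 (interval 1.60 to 1.78, 3.23-fold). UGDH had 5.57, 6.94, 5.13 and 5.72 FPKM in MDA-MB468 and 7.94, 7.69, 24.1 and 58.5 FPKM in BT549, a log2 ratio of 1.60 between the BT549 controls (interval 1.51 to 1.69, 3.03-fold). NQO1, the quinone reductase often used as a readout of NRF2, had log2 ratios of 0.68 in MDA-MB468 and -0.32 in BT549. CBR1 and CBR3, carbonyl reductases, lay between -0.48 and 0.27.

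Among the genes of heme and iron, HMOX1, the heme oxygenase that opens the heme ring, lies on chromosome 22 (hg19 35776354 to 35790207). It had 5.98, 3.36, 12.1 and 7.87 FPKM in MDA-MB468, and CE control cells were 2.03-fold above parental control cells (log2 ratio 1.02, interval 0.89 to 1.16), a value that other scalings place just under 2-fold. In BT549 the untreated levels were 96.8 FPKM in parental and 94.8 FPKM in CE cells (log2 ratio -0.03). BLVRB, biliverdin reductase B, had 45.3, 40.8, 59.3 and 49.2 FPKM in MDA-MB468 and 6.54, 8.12, 13.4 and 14.0 FPKM in BT549. CE control cells of BT549 were 2.05-fold above parental control cells (log2 ratio 1.04, interval 0.88 to 1.20). The ferritin chains FTL and FTH1 had ratios between -0.06 and 0.79. FTH1 shares 20.3% of its read-length windows with its pseudogenes. CAT, catalase, had 67.1, 50.8, 90.7 and 65.8 FPKM in MDA-MB468 and 7.44, 5.77, 22.4 and 13.6 FPKM in BT549, and was 3.01-fold higher in CE than in parental control cells of BT549 (log2 ratio 1.59, interval 1.49 to 1.68).

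**Figure D3:**
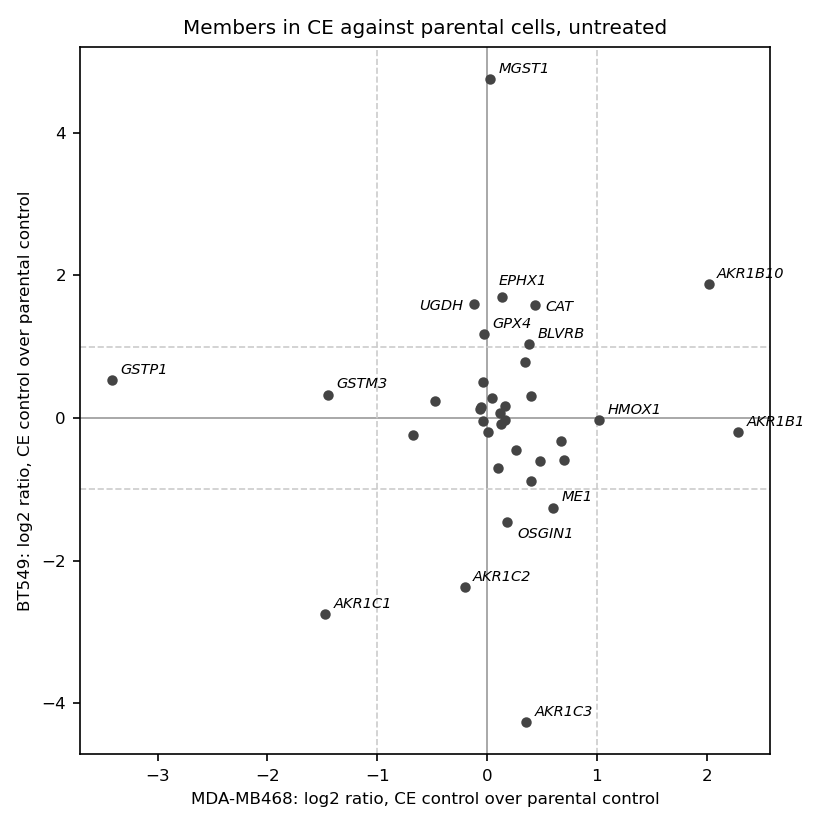
Log2 ratio of CE over parental control cells in MDA-MB468 (horizontal axis) and BT549 (vertical axis) for the 36 measured members, 1 point per gene; dashed lines mark 2-fold and the genes beyond them are named. AKR1B10 lies in the upper right corner (2.02 and 1.88) and AKR1C1 in the lower left one (-1.47 and -2.75), and the other named genes pass 2-fold in 1 line.

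The second question was how the members respond to 6 h of Acetalax. Few were 2-fold apart. In parental MDA-MB468 cells 1 member was at least 2-fold higher after Acetalax (2.78%, against 5.28% of all genes) and 0 were lower (against 5.01%). In CE cells of MDA-MB468 there were 0 in either direction (against 2.96% higher and 3.25% lower). In parental BT549 cells 2 were higher (5.56%, against 2.90%) and 0 lower (against 4.06%), and in CE cells of BT549 3 were higher (8.33%, against 4.93%) and 1 lower (2.78%, against 14.7%). In all 4 backgrounds 5 members had a log2 ratio above 0 (13.9%, against 11.9% of all genes), namely GCLM, ME1, OSGIN1, PRDX6 and TXNRD1. The ratio was below 0 in all 4 for 12 members (33.3%, against 30.0%). Scaling by TMM (trimmed mean of M-values) in place of the total count makes this 10 members each way (against 18.5% and 21.7% of all genes), with KEAP1 and GPX4 no longer below 0 throughout. The median ratio of all genes in CE cells of BT549 was -0.21 with the total count and -0.02 with TMM, beside -0.11 and 0.09 for the members. In the other backgrounds the members' medians were -0.17, -0.19 and 0.04, against -0.10, -0.07 and -0.10.

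HMOX1 was more than 2-fold higher after Acetalax in both backgrounds of BT549 and lower in both of MDA-MB468. In BT549 it was 96.8 FPKM in parental control and 345.9 FPKM in parental Acetalax cells, and 94.8 and 367.8 FPKM in the CE cells. Both treated BT549 libraries were therefore above both controls, 3.57-fold in parental cells (log2 ratio 1.84, interval 1.80 to 1.87) and 3.88-fold in CE cells (1.96, interval 1.93 to 1.98). In MDA-MB468 each treated library was below its own control, with log2 ratios of -0.83 (interval -1.02 to -0.65) in parental and -0.63 (-0.75 to -0.50) in CE cells.

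OSGIN1, an oxidative stress-induced growth inhibitor, lies on chromosome 16 (hg19 83981887 to 83999937) and had a log2 ratio above 0 in each background. It had 2.34, 3.84, 2.66 and 3.20 FPKM in MDA-MB468, in the order parental control, parental Acetalax, CE control and CE Acetalax, and 1.11, 2.58, 0.405 and 2.81 FPKM in BT549. Treated libraries were above controls within each line. The ratio was 0.71 and 0.27 in parental and CE cells of MDA-MB468, 1.21 in parental (interval 1.01 to 1.43) and 2.79 in CE cells of BT549 (2.52 to 3.08, 6.93-fold). The untreated CE cells of BT549 had the lowest level of the 8 libraries, 2.74-fold below parental control cells (log2 ratio -1.45, interval -1.78 to -1.14).

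TXNRD1, the selenoprotein that reduces thioredoxin, lies on chromosome 12 (hg19 104609557 to 104744061). It had 36.7, 75.0, 51.4 and 60.0 FPKM in MDA-MB468 and 98.8, 110.8, 64.7 and 85.0 FPKM in BT549. Its log2 ratio after Acetalax was 1.03 in parental MDA-MB468 cells (interval 1.00 to 1.06, 2.04-fold), 0.22 in the CE cells of that line, and 0.17 and 0.39 in parental and CE cells of BT549. Untreated CE cells of MDA-MB468 were above, and those of BT549 below, their parental cells (0.49 and -0.61).

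UGDH and CBR3 passed 2-fold in CE cells of BT549 alone. UGDH went from 24.1 to 58.5 FPKM there (log2 ratio 1.28, interval 1.23 to 1.33, 2.43-fold) and from 7.94 to 7.69 FPKM in parental BT549 cells. The treated CE cells thus had 7.59-fold more UGDH RNA than treated parental cells, a ratio that follows from the other values. CBR3 had 4.14, 2.66, 2.97 and 2.74 FPKM in MDA-MB468 and 3.86, 2.00, 4.58 and 1.39 FPKM in BT549. Its log2 ratio was -1.72 in CE cells of BT549 (interval -2.13 to -1.34, 3.29-fold lower), -0.94 in parental BT549 cells, and -0.64 and -0.12 in MDA-MB468, on 70 to 248 counts per library.

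**Figure D4:**
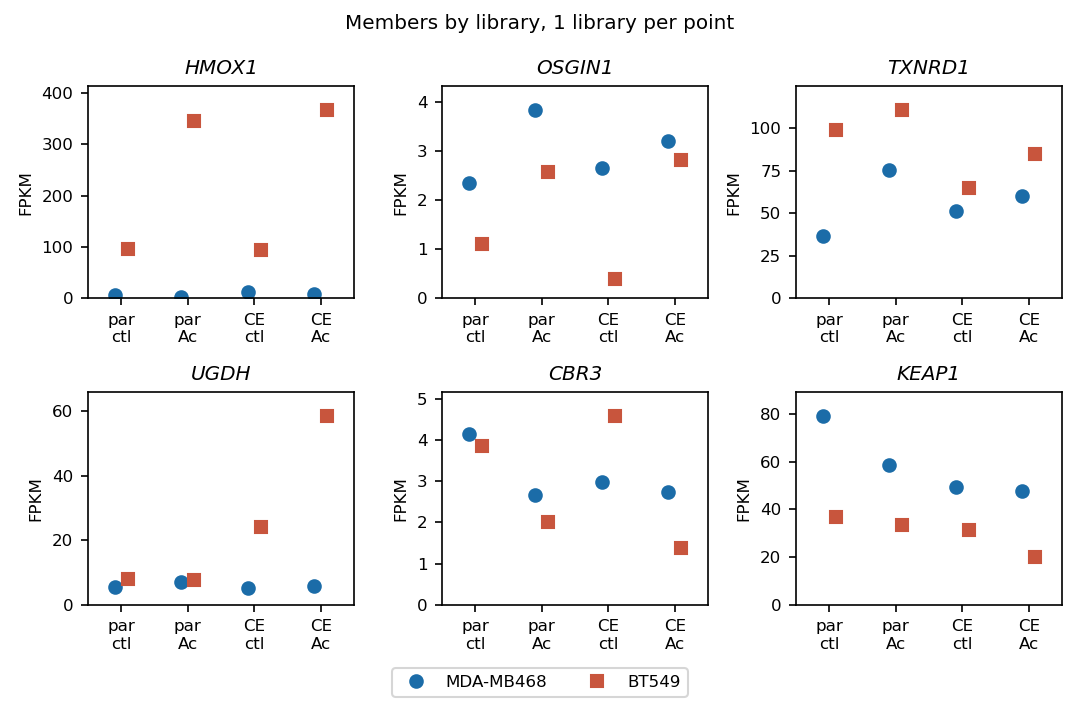
Level in FPKM of 6 members in each of the 8 libraries, 1 point per library on an axis that starts at 0, with circles for MDA-MB468 and squares for BT549; par is parental, ctl control and Ac Acetalax. HMOX1 in BT549 goes from 96.8 and 94.8 FPKM to 345.9 and 367.8 FPKM after Acetalax, and UGDH reaches 58.5 FPKM only in treated CE cells of BT549.

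The remaining members lay within 2-fold after Acetalax. Nearest to that size were AKR1C3 with -0.95 in both backgrounds of MDA-MB468, CBR1 and CBR3 with -0.94 in CE and parental cells of BT549, and GSR with -0.89 in CE cells of BT549; the nearest beyond it was TXNRD1 with 1.03. All of AKR1B10, AKR1C1, AKR1C2 and AKR1C3 were below 0 in each of the 4 backgrounds, with AKR1B10 between -0.58 and -0.25. Parental BT549 cells had 7 control and 6 Acetalax counts for AKR1B10, 46 and 38 for AKR1C2 and 186 and 181 for AKR1C1. Those signs rest on few or nearly equal counts, and with TMM AKR1C1 was at -0.003 there. AKR1C3 had 711 and 555 counts. In CE cells of BT549 each of these genes had at most 47 counts per library. The 4 enzymes of glutathione synthesis and reduction lay between -0.89 and 0.40, and GCLM among them was between 0.00 and 0.40. NQO1 lay between -0.12 and 0.16. FTL and FTH1 were below 0 in both backgrounds of MDA-MB468 (from -0.35 to -0.10) and above 0 in both of BT549 (from 0.03 to 0.34), the same directions as HMOX1.

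CE and parental cells were also set side by side after Acetalax. CE over parental cells, both treated, gave log2 ratios of -3.39 for GSTP1, -1.23 for GSTM3, 2.30 for AKR1B1 and 2.16 for AKR1B10 in MDA-MB468. In BT549 it gave 4.09 for MGST1, -4.50 for AKR1C3, -1.24 for ME1, 1.23 for CAT, 1.43 for EPHX1 and 1.04 for GPX4. OSGIN1 and UGDH differed most from their untreated ratios in BT549, since OSGIN1 was at -1.45 untreated and 0.12 treated and UGDH at 1.60 untreated and 2.92 treated. These libraries share the treated and control values given above, so the ratios add no independent measurement.

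Regulators and other genes of the pathway outside the members were read from a list of 93 genes, of which 82 reached 1 CPM. NFE2L2, which encodes NRF2, had 12.9, 11.0, 11.0 and 8.57 FPKM in MDA-MB468 and 5.60, 6.75, 5.21 and 10.6 FPKM in BT549. Its log2 ratio after Acetalax was -0.24 and -0.36 in parental and CE cells of MDA-MB468, and 0.27 and 1.03 in those of BT549, signs that HMOX1 shared. MAFF and MAFG encode small MAF partners of NRF2 that also pair with its competitors. MAFF was higher after Acetalax in all 4 backgrounds, with log2 ratios of 2.62 and 1.10 in MDA-MB468 and 2.01 and 3.86 in BT549. MAFG had 1.63 and 0.54, and 1.77 and 2.16. BACH2, which encodes a repressor at MAF sites, had 2.85, 2.38, 1.34 and 2.34, on 8 to 247 counts. MAFK, another small MAF gene, had 13.5, 43.3, 14.1 and 22.3 FPKM in MDA-MB468 and 12.4, 22.7, 10.6 and 28.1 FPKM in BT549. It was at least 2-fold higher after Acetalax in parental MDA-MB468 and CE BT549 cells. MSRB1 was at least 2-fold lower in these backgrounds, from 689 to 335 and from 591 to 177 counts. TXNIP, the thioredoxin-binding inhibitor, went from 892 to 189 counts in parental and from 5845 to 2126 counts in CE cells of BT549 (log2 ratios -2.28 and -1.36) and had at most 4 counts in MDA-MB468. The aldo-keto reductase gene AKR1B15 went from 530 counts in parental to 1127 counts in CE control cells of MDA-MB468 (log2 ratio 1.23) and had at most 3 counts in BT549, which gives no fold there.

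Of the 82 pathway genes, 5 were at least 2-fold higher in CE than in parental control cells of MDA-MB468 (6.10%, against 3.21% of all genes) and 1 lower (1.22%, against 2.92%). In BT549 9 were higher (11.0%, against 9.16%) and 2 lower (2.44%, against 6.81%). After Acetalax, 4 were higher (4.88%, against 5.28%) and 3 lower (3.66%, against 5.01%) in parental cells of MDA-MB468, and 3 higher (3.66%, against 2.96%) and 3 lower (3.66%, against 3.25%) in its CE cells. In parental BT549 cells 4 were higher (4.88%, against 2.90%) and 1 lower (1.22%, against 4.06%), and in CE cells of BT549 12 were higher (14.6%, against 4.93%) and 7 lower (8.54%, against 14.7%). These counts include genes at a handful of reads, AKR1B15 and MGST2 in BT549 and TXNIP in MDA-MB468. With counts under 3 raised to 3, a setting chosen after seeing the data, the 9 become 8, the 12 become 11 and the 7 become 6 in CE cells of BT549, the 4 higher in parental BT549 cells become 3, and the 3 lower in each background of MDA-MB468 become 2. The 12 were AKR1B15, BACH1, BACH2, CHAC1, MAFF, MAFG, MAFK, NFE2L2, SESN2, SLC3A2, SLC7A11 and SQSTM1.

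The difference between the cell lines was not used to choose the members and could be tested. edgeR's quasi-likelihood test compared the 4 BT549 with the 4 MDA-MB468 libraries, with the condition as a block and Benjamini-Hochberg adjustment over 19693 genes. The 4 libraries of a line are 1 line under 4 conditions, so the p-values measure the spread between these libraries. Where 1 library is left out below, its block holds only the library of the other line, which then adds nothing to the line difference. Leaving out either library of a condition is therefore nearly the same check. Of 37 members tested, 12 were higher in BT549 (32.4%, against 27.3% of all genes) and 12 higher in MDA-MB468 (32.4%, against 29.5%). The shares are close to the background in both directions. Of the 87 pathway genes tested, 27 were higher in BT549 (31.0%) and 31 in MDA-MB468 (35.6%). Epithelial and mesenchymal markers differ between the same lines by the sums given above, and their part in these calls was not tested.

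HMOX1 and FTL had the largest differences towards BT549 among the members. HMOX1 was between 3.36 and 12.1 FPKM in MDA-MB468 and between 94.8 and 367.8 FPKM in BT549, with no overlap. The log2 fold change in edgeR's quasi-likelihood test was 4.96 (SE 0.69, adjusted p = 0.001408). FTL, the ferritin light chain, had 121.2, 104.1, 116.6 and 91.8 FPKM in MDA-MB468 and 1490.4, 1744, 1663 and 1700.1 FPKM in BT549, a log2 fold change of 4.10 (SE 0.18, adjusted p = 2.022e-05 by edgeR). FTH1, the heavy chain, was also higher in BT549, at 0.69 (SE 0.21, adjusted p = 0.0271 by edgeR), a call lost without any 1 of the 4 CE libraries or without either parental Acetalax library (0.47 to 0.76). BLVRB was lower in BT549, at -2.10 (SE 0.22, adjusted p = 0.0004401 by edgeR). The 4 heme and iron genes summed to between 398 and 528 FPKM in MDA-MB468 and to between 1871 and 2665 FPKM in BT549.

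The transferases and aldo-keto reductases differed in both directions. GSTP1 was higher in BT549 by 3.23 on the log2 scale (SE 0.98, adjusted p = 0.02887 by edgeR). Its parental and CE levels in MDA-MB468 lay far apart, and leaving out any 1 of the 4 CE libraries removed the call (2.35 to 2.42). GSTO1, the omega-class transferase, had 20.5, 19.1, 20.6 and 20.6 FPKM in MDA-MB468 and 56.4, 59.9, 49.2 and 52.1 FPKM in BT549, a log2 fold change of 1.59 (SE 0.13, adjusted p = 0.0001653 by edgeR). UGDH was higher in BT549 by 1.70 (SE 0.61), at an adjusted p of 0.04998 by edgeR, and was not called without any 1 of the CE libraries (1.07 to 1.42). In the 4 parental libraries alone its value was 0.42.

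The largest differences towards MDA-MB468 were in AKR1C2 (-7.72, SE 0.54, adjusted p = 9.767e-05 by edgeR) and AKR1B10 (-7.47, SE 0.19, adjusted p = 9.912e-06). MGST1 followed with -5.92 (SE 1.09, adjusted p = 0.004316 by edgeR), AKR1C1 with -4.17 (SE 0.34, adjusted p = 0.0001825) and CAT with -2.48 (SE 0.27, adjusted p = 0.0005399). For each of these 5 genes the 8 libraries split by line without overlap. AKR1C3, the neighbour of AKR1C1 and AKR1C2, was not called (0.28, SE 1.16, adjusted p = 0.8554 by edgeR). Its BT549 levels ran from 0.142 to 4.30 FPKM around those of MDA-MB468. In the 4 parental libraries alone AKR1C3 was called. KEAP1 was lower in BT549 by -0.79 (SE 0.15, adjusted p = 0.004411 by edgeR).

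**Figure D5:**
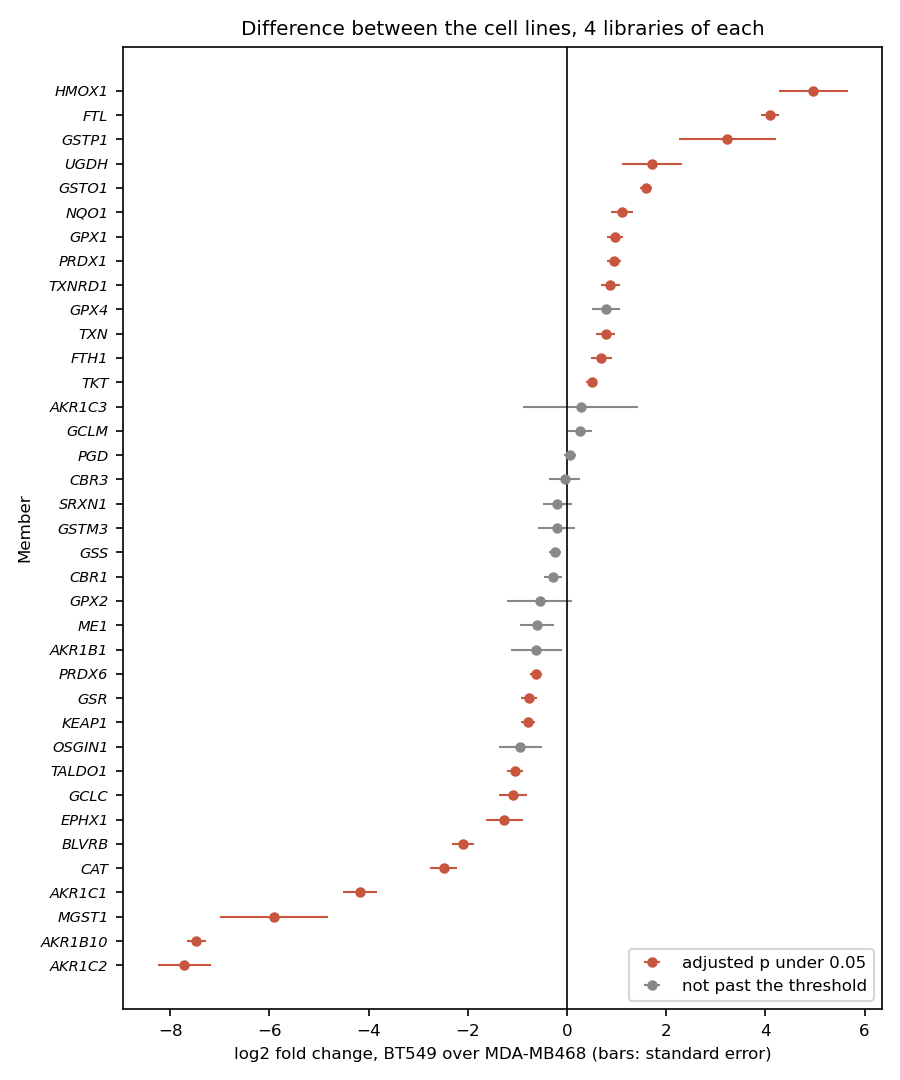
Log2 fold change of BT549 over MDA-MB468 for the 37 members tested (horizontal axis, points; bars are the standard error), sorted by value, with calls at an adjusted p under 0.05 in red. HMOX1 (4.96) and FTL (4.10) lie at the BT549 end and AKR1C2 (-7.72) and AKR1B10 (-7.47) at the MDA-MB468 end, with 12 calls on each side.

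The other calls towards BT549 were NQO1, GPX1, PRDX1, TXNRD1, TXN and TKT, with log2 fold changes between 0.50 and 1.11. The other calls towards MDA-MB468 were EPHX1, GCLC, TALDO1, GSR and PRDX6, between -1.26 and -0.63. The subunits of the glutamate-cysteine ligase parted in the test on all 8 libraries. GCLC was called (-1.09, SE 0.28, adjusted p = 0.01483 by edgeR) and GCLM was not (0.27, SE 0.24, adjusted p = 0.3691). In the 4 parental libraries alone both were called. The GCLC call was lost without either treated CE library (-0.93 and -0.94), and the call of EPHX1 (-1.26) was lost without any 1 of the 4 parental libraries (-1.02 to -0.90). The difference between these 2 subunits was not tested. GPX1 shares 45.0% of its read-length windows with other gene models, so its level is uncertain.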

How the data were processed

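RNA from 8 libraries (polyA-selected, directional kit) was aligned by the authors to hg19 with STAR (2.7.11b per the labels) and counted per gene with its GeneCounts option; the deposited values are raw counts, whole numbers that were not normalized. Annotation and strand column are not given in the sources used here, so antisense and overlapping genes are uncertain. The table holds 58154 rows for 55679 identifiers, of which 1392 are repeated and were kept once. FPKM was computed with merged exon lengths of a GENCODE annotation on hg19 (55663 identifiers matched) and each library's total. Log2 ratios used counts plus 0.5 over the total; intervals are 95% exact binomial (Clopper-Pearson), counting error only. The background was all genes whose mean over the libraries reached 1 CPM. Lines were compared with edgeR 4.0.16 (R 4.3.3; quasi-likelihood, TMM, filterByExpr, condition as a block, 3 residual degrees of freedom, threshold 0.05); DESeq2 1.42.0 was an alternative. On simulated data with 200 of 19435 genes changed, this test called 96.4% of the 4-fold and 18.0% of the 2-fold changes with 2 false calls. The simulation gave every gene the same dispersion (0.099). In the data 56.8% of genes were called and dispersion was not held equal, so these rates need not hold there. Read-length windows were 101 bases of each gene's longest coding transcript, searched in all other transcripts.

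Every member was accounted for. Values of all libraries are given for members at least 2-fold apart in any of the 6 pairs, for KEAP1, GCLM (which had opposite signs in the lines and was added after its values were seen) and the 5 members with the largest called difference each way between lines. Pathway genes are named where they were 2-fold apart in the same direction in the same comparison in both lines. NFE2L2, MAFK, MSRB1 and the 12 genes higher after Acetalax in CE cells of BT549 are named as well. The members and lists were chosen with earlier results of these data known.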

Additional observations from a re-analysis of the deposited data

Results flagged for a closer look

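After Acetalax 9 of the 36 measured members, and between CE and parental cells 14, had one sign in both pairs of MDA-MB468 and the opposite sign in both pairs of BT549. Counting intervals cleared 0 in all 4 pairs for 4 and 7 of them, which are given here; they covered 0 in at least 1 pair for the other 5 and 7. Whether the lines differ was not tested, since each condition is 1 library. The share of all genes with such signs was not counted, so these numbers are not read as particular to the members.

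For Acetalax over control, HMOX1 had log2 ratios of -0.83 in parental and -0.63 in CE cells of MDA-MB468, and of 1.84 and 1.96 in those of BT549. FTL had -0.22 and -0.35, and 0.23 and 0.032. FTH1 had -0.10 and -0.30, and 0.34 and 0.28. NQO1 had -0.12 and -0.092, and 0.16 and 0.10.

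For CE over parental cells, GSTP1 had log2 ratios of -3.42 untreated and -3.39 treated in MDA-MB468, and of 0.54 and 0.45 in BT549. AKR1B1 had 2.29 and 2.30, and -0.20 and -0.22. ME1 had 0.60 and 0.36, and -1.26 and -1.24. GCLC had 0.40 and 0.11, and -0.88 and -1.21. GCLM had 0.70 and 0.52, and -0.59 and -0.40. NQO1 had 0.68 and 0.71, and -0.32 and -0.37. TXN had 0.10 and 0.16, and -0.70 and -0.72. The untreated and treated pairs of a line are not independent of its Acetalax ratios.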

How the results depend on the processing

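With 1.5-fold in place of 2-fold as the size named, members apart between CE and parental control cells of MDA-MB468 went from 6 to 10, and after Acetalax from 1 to 6 and from 0 to 4 in parental and CE cells of MDA-MB468, from 2 to 4 in parental and from 4 to 9 in CE cells of BT549. With differences of log2(FPKM + 1), which shrink low genes, members apart went from 12 to 7 for CE over parental cells of BT549 and from 2 to 1 for Acetalax in parental BT549 cells. With every gene of at least 1 count, members apart went from 1 to 2 for Acetalax in parental MDA-MB468 cells. The shares of all genes under these settings were not counted, so nothing is read from these changes about the members. HMOX1 in CE over parental control cells of MDA-MB468 was 0.98 with TMM, 0.97 with DESeq2's size factors and 0.91 with log2(FPKM + 1). Between lines, 24 of 37 members were called (beside 56.8% of all genes tested). With 1 library left out 20 to 24 were called (beside 45.5% to 49.1% of all genes). The 4 control libraries alone gave 12 calls of 36 members (beside 36.6% of all genes). The 4 parental libraries alone gave 27 of 36 (beside 56.5%). The parental libraries added AKR1B1, AKR1C3, GCLM, GSTM3 and OSGIN1 and lost FTH1 and UGDH. There were 15 calls when 2-fold was also required, for which the share of all genes was not counted. With line as the only term in place of the condition block, 24 of 36 members were called (beside 57.4% of all genes). The controls or parental cells alone are fewer libraries, and the 2-fold rule only removes calls. Of the 24, UGDH was lost with DESeq2's size factors in edgeR (1.69) and with total counts (1.54). There 23 and 24 members were called (beside 56.8% and 56.0% of all genes). No called direction was reversed in any alternative run. With 1 library per condition, depth does not limit most members, but some in BT549 rest on under 50 counts per library. These are AKR1B10 and AKR1C2 in parental and CE cells, AKR1C1 and AKR1C3 in CE cells, and MGST1 in parental cells.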
